A study of Homo sapiens with 48 samples.

Results

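In 92-1 uveal melanoma cells, 76 genes were higher after 4 h of the BAF inhibitor FHT-1015 and lower after 24 h of it, each time against DMSO. They were chosen from the read counts of the 12 libraries of that experiment, scaled to counts per 1000000 reads in genes (written cpm, in lower case, since CPM is also a gene). A gene was taken when its log2 ratio of FHT-1015 to DMSO group means, with 0.5 added to each, was at least 0.58 at 4 h and at most -0.58 at 24 h. Each FHT-1015 replicate also had to lie outside the DMSO range at both times, and the mean over the 12 libraries had to reach 2 cpm. The files list 58870 genes, of which 12258 reached that mean. MYC was left out by rule, and it would not have met the 4 h ratio.

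RNA sequencing covered 3 uveal melanoma lines, 92-1, MEL202 and MP41, in 48 libraries of poly(A)-selected RNA that form 16 groups of 3 replicates, each labelled a biological replicate. FHT-1015 inhibits SMARCA4 and SMARCA2, the ATPases of BAF complexes, and each line received it or DMSO for 4 or 24 h. Line 92-1 also received IDE196, an inhibitor of protein kinase C, or a separate set of DMSO libraries, for 4 or 24 h. The labels call the genotype of these cells WT and give no doses. Each line is a cultured tumour line, so its replicates are cultures of the same cells and not tumours of different patients. An experiment here means the 12 libraries of a line and a drug, DMSO included. The MEL202, MP41 and IDE196 experiments share no library with the 12 that chose the genes, and tests were made in them alone.

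BAF complexes use the energy of ATP to move or evict nucleosomes and so open enhancers and promoters to transcription factors. Melanocytic tumour cells depend on lineage factors such as MITF and SOX10, which bind at such enhancers, and uveal melanoma typically carries activating mutations in the G protein genes GNAQ or GNA11, whose signal runs through protein kinase C to the MAPK cascade. Ribosome production starts with transcription of ribosomal RNA by RNA polymerase I and goes on with trimming, modification and assembly of the particles in the nucleolus.

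Reads in genes ranged from 11394088 to 32317711 per library over the 48 libraries, and from 11991337 to 24005016 in the FHT-1015 experiment of 92-1. Of the 48, the second FHT-1015 replicate at 4 h in MEL202 had the fewest genes with a read, 17592, and the other 47 had at least 20023. In 92-1 at 4 h, reads in no annotated feature made up 5.38 to 6.49% with FHT-1015 and 4.28 to 4.68% with DMSO. At 24 h these groups overlapped. The part of this difference in the choice of genes was not tested. In every library 8 melanocytic genes summed to between 3118 and 21494 cpm, which fits the labelled cell type. With FHT-1015 at 24 h these sums were lower than with DMSO in each line, at 5203 to 5487 against 19577 to 21494 cpm in 92-1, 3118 to 3475 against 8135 to 10138 in MEL202, and 5989 to 6495 against 12577 to 13036 in MP41. At 4 h of FHT-1015 the sum was lower in 92-1, at 15189 to 17380 against 20076 to 20609 cpm, and the groups overlapped in MEL202 and MP41. With IDE196 they overlapped at both times. Markers of other cells were low, with sums from 0 to 4.88 cpm for 5 endothelial genes, from 0.0446 to 6.22 for 7 leukocyte genes, from 0.740 to 27.2 for 6 epithelial genes and from 2.47 to 44.8 for 7 fibroblast genes. The fibroblast sum lay above DMSO without overlap with FHT-1015 at 24 h in 92-1 (11.5 to 13.01 against 3.22 to 4.45 cpm) and at both times in MEL202 (8.36 to 21.3 against 6.46 to 7.24 at 4 h, and 35.1 to 43.2 against 6.69 to 8.45 at 24 h). It did so with IDE196 at 24 h as well (11.7 to 21.9 against 6.64 to 11.3). At 24 h COL1A1 was above DMSO in these 3 experiments and COL3A1 in MEL202, and no other gene of the list was. LUM went the other way in 92-1 with FHT-1015, at 0.0612 to 0.167 against 0.366 to 0.441 cpm with DMSO. Sums of the endothelial and epithelial genes were above DMSO at 24 h in MEL202, reaching 4.88 and 8.001 cpm, and that of the leukocyte genes was above DMSO at 4 h in 92-1, at no more than 0.666 cpm. The endothelial sum lay below DMSO with FHT-1015 at 4 h in MEL202 and at 24 h in MP41, and the epithelial sum with IDE196 at 4 h (6.42 to 13.4 against 13.7 to 21.5). The part of these shifts in the results below was not tested. All values are relative to the total of a library, so fewer cells of a kind and less RNA per cell cannot be told apart.

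Rising and then falling was the less common course among the genes that were higher early in 92-1. At 4 h, 792 of the 12258 genes (6.46%) met the conditions for a rise. At 24 h, 370 of these 792 met the conditions for a rise again, 346 met neither, and 76 met those for a fall. A fall at 24 h was found in 9.60% of the 792 genes that had risen, against 20.4% of the 12258. Both conditions together held for 0.62% of the 12258. These counts describe the genes the choice was made from and carry no test.

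Among the 76 genes the log2 ratio ran from 0.58 to 1.45 at 4 h, with a median of 0.74. At 24 h it ran from -2.81 to -0.58, with a median of -0.93. The medians over the 12258 genes were 0.03 and 0.00. The mean level of the 76 genes ran from 2.05 to 264 cpm, with a median of 17.1, and 11 genes lay under 5. At the edges of the choice, RRP1 had 0.58051 and C10orf90, just outside, 0.57761 at 4 h. At 24 h, C3orf52 was inside at -0.58348 and ST20 outside at -0.5763. ACTL10 was inside at a mean of 2.05 cpm and AC141557.1 outside at 1.98.

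**Figure D1:**
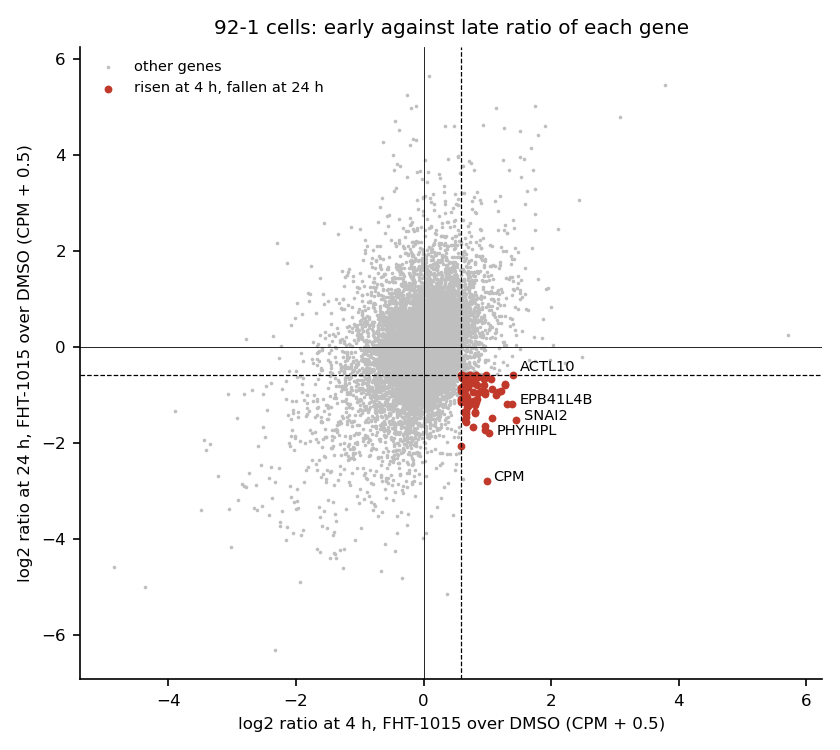
Each point is a gene with a mean of at least 2 cpm in the 12 libraries of 92-1, with its log2 ratio of FHT-1015 to DMSO at 4 h across and at 24 h upward (0.5 added to each mean). Dashed lines mark 0.58 and -0.58, and the 76 chosen genes, in red, fill the near corner of the lower right quadrant, reaching 1.45 across (SNAI2) and -2.81 down (CPM).

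By general knowledge of their products, grouped after their values were known, 12 of the 76 act in ribosome production, 11 in transcription and chromatin, 10 in signalling, 6 in adhesion, matrix or cytoskeleton, 5 in DNA replication, repair or cell division, 4 in RNA modification, RNA export or protein folding and 3 in the mitochondrion. The other 25 were not grouped. By annotation, 70 were protein-coding genes, 2 were unprocessed pseudogenes, 2 were intergenic long noncoding RNAs, 1 was antisense and 1 was sense intronic. The 92.1% that were protein coding compared with 91.3% of the expressed genes with an annotation. The median gene span was 28.1 kb in the 76 and 34.6 kb in the expressed genes. The median summed exon length was 4658 bases against 5331.

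Promoter sequences are shown for genes of ribosome production because that was the largest of the groups and all 12 were lower with IDE196 at both times, as given below. Of the 76 genes, 58 matched a promoter in the RefSeq table for GRCh38.p14, and motifs were searched on both strands in the 250 bases before the annotated start. The core of ETS family sites, CCGGAAG, was found in 5 of the 11 matched ribosome production genes. It was found in 15.5% of the 58 promoters, in 17.0% of 9202 promoters of expressed genes and in 8.82% of all 27305. The E-box CACGTG, a site of MYC and of MITF, was found in 10.3% of the 58, 9.23% of the expressed and 6.49% of all. The lines below give 30 bases around the match nearest the start, 5′ to 3′ on the strand of the gene, with the ETS core (or its reverse complement CTTCCGG) or the E-box in capitals.
RRP9, chr3:51942117-51942146 (-): acagcatcaggCCGGAAGcgccgtggagat
LTV1, chr6:143843270-143843299 (+): agcctatgtaaCTTCCGGtcgcgacccatc
BRIX1, chr5:34915595-34915624 (+): cgccaccgagaCCGGAAGgaggcggcacag
POLR1C, chr6:43516954-43516983 (+): aaaagcaaCTTCCGGAAGctggggacgtgg
RIOK1, chr6:7389777-7389806 (+): ctcaagtcagaCTTCCGGgcgaggcggtga
CD3EAP, chr19:45406614-45406643 (+): gccctacccctttggatcCACGTGgtctgc
In POLR1C the ETS core and its reverse complement overlap. The stretches of BRIX1, POLR1C, RIOK1 and CD3EAP lie before the RefSeq start but touch an exon of GENCODE release 29, which places a start further upstream, and those of RRP9 and LTV1 touch none. The CCAAT box (CCAAT) was found in 34.5% against 35.5%, CAGGTG, which SNAI factors bind, in 12 of 58, or 20.7%, against 14.8%, and the cyclic AMP response element TGACGTCA in 3 of 58, or 5.17%, against 3.04%. The TATA box (TATAAA) and the AP-1 site TGACTCA were each found in 1 of 58, or 1.72%, against 4.61% and 2.09% of the expressed. An extended YY1 site and the orphan receptor site AAAGGTCA were found in 0, against 0.456% and 0.641%. A match is only a match of letters, and no test was made of these shares.

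Among protein-coding genes averaging 5 cpm or more, those with the largest span between the 2 ratios included CPM, SNAI2, PHYHIPL, PTPRZ1, LDLRAD4, SNX10 and LHX6. The gene symbol CPM stands for carboxypeptidase M, a membrane enzyme that trims basic residues from the ends of peptides. In cpm, its 3 DMSO libraries at 4 h held 17.3, 19.2 and 19.6, and those with FHT-1015 held 39.4, 35.5 and 38.1. After 24 h its DMSO libraries held 14.9, 18.8 and 24.7 and the FHT-1015 libraries 2.62, 1.75 and 2.69. The FHT-1015 libraries were all above DMSO at 4 h and all far below it at 24 h, with log2 ratios of 0.99 and -2.81. CPM (chr12:68842197-68971570, minus strand) overlaps MDM2, and the counts do not use strand.

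SNAI2, which encodes the zinc finger repressor Slug of neural crest and migrating cells, had the highest 4 h ratio of the 76. Its DMSO libraries at 4 h held 216, 216 and 187 cpm and its FHT-1015 libraries 587, 588 and 520, a log2 ratio of 1.45. At 24 h they held 257, 195 and 180 with DMSO and 79.6, 72.0 and 68.3 with FHT-1015, a log2 ratio of -1.52. It was also the most abundant of the 76, and its FHT-1015 libraries lay clear of DMSO by a wide margin at both times. SNAI2 lies at chr8:48917604-48921740 on the minus strand.

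PHYHIPL, a gene mainly known from brain, held 62.5, 65.2 and 73.1 cpm with DMSO and 133, 139 and 137 with FHT-1015 at 4 h. At 24 h it held 51.8, 64.8 and 68.0 with DMSO and 19.5, 17.3 and 15.2 with FHT-1015. Its log2 ratios were 1.02 and -1.80, and the replicates of each group lay close together. Its neighbour FAM13C, which overlaps it and is itself among the 76, had ratios of 1.21 and -0.92, and reads from their overlap cannot be assigned to a strand.

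PTPRZ1 encodes a receptor tyrosine phosphatase of neural and glial cells. It held 11.4, 7.63 and 6.39 cpm with DMSO and 23.0, 16 and 11.8 with FHT-1015 at 4 h, and 7.71, 8.39 and 5.25 against 3.11, 1.67 and 0.612 at 24 h. The lowest FHT-1015 library at 4 h was only just above the highest DMSO library, so its ratios of 0.96 and -1.73 rest on wider groups than those of CPM or SNAI2. LDLRAD4, an inhibitor of TGF-beta signalling, held 6.34, 6.14 and 8.49 with DMSO and 14.7, 12.9 and 14.9 with FHT-1015 at 4 h, and 8.16, 8.52 and 9.28 against 2.00, 2.67 and 2.57 at 24 h. Its groups were well apart, with log2 ratios of 0.97 and -1.65.

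SNX10, a sorting nexin of endosomes, held 10.3, 13.3 and 11.1 cpm with DMSO and 25.2, 28.9 and 20.4 with FHT-1015 at 4 h, and 22.2, 16.8 and 14.9 against 6.56, 6.84 and 4.90 at 24 h. Its DMSO libraries at 24 h were all above those at 4 h, and its ratios were 1.07 and -1.49. LHX6, a LIM homeobox factor of interneuron development, held 14.3, 13.6 and 13.4 with DMSO and 23.4, 24.3 and 23.9 with FHT-1015 at 4 h, and 12.3, 15.2 and 13.9 against 3.80, 3.67 and 4.59 at 24 h. Its replicates lay close together in every group, and its ratios were 0.78 and -1.66.

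**Figure D2:**
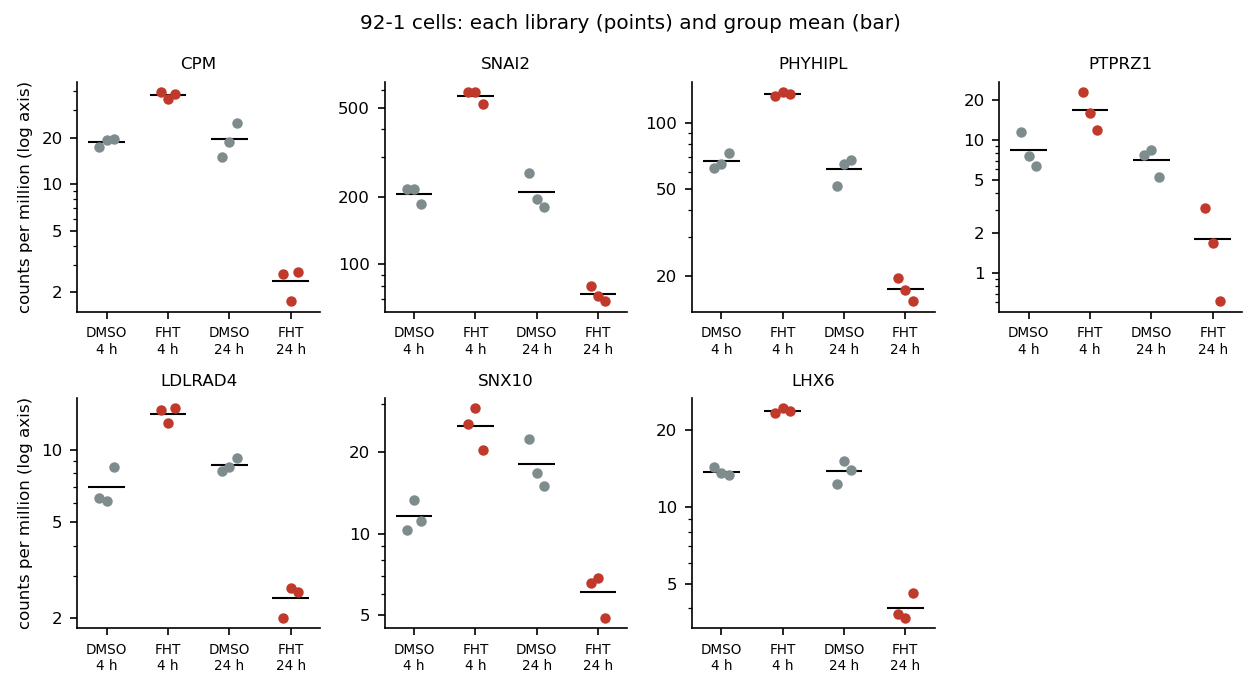
Level in cpm (log axis) in each of the 12 libraries of 92-1 for 7 genes with a wide span, with DMSO in grey, FHT-1015 in red and a bar at each group mean. In every panel the 3 red points lie above the grey at 4 h and below it at 24 h, as the choice required, and SNAI2 runs from 588 down to 68.3.

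Few of these genes passed the test for a rise at 4 h in the other lines, although most values lay on that side. In MEL202 at 4 h, 3 of the 74 genes tested were higher with FHT-1015 by edgeR at an adjusted p under 0.05, where 0.157% of all 15913 genes tested were, and 0 were lower, where 0.522% of all genes were. The median log2 fold change of the 74 was 0.39, against -0.02 over all genes, and 68 of the 74 were above 0, against 47.3% of all genes. At an unadjusted p under 0.05, 20 were higher, against 3.7% of all genes, and 0 lower, against 4.88%. DESeq2 called 8 higher, against 0.597% of all genes, and limma-voom 2, against 0.101%, with 0 lower in each, against 1.22% and 0.622%. In MP41 at 4 h, edgeR called 0 of 71 genes higher and 0 lower, where 0.0708% and 0.154% of all 15543 genes were called. There the median was 0.26 against 0.01 over all genes, 64 of 71 lay above 0 against 51.3% of all genes, and at an unadjusted p under 0.05 13 were higher, against 1.96%, and 0 lower, against 3.82%. In MP41 DESeq2 called 2 of them higher, against 0.259% of all genes, and limma-voom called 10, against 1.28%, with 0 lower in each, against 0.686% and 2.9%. In MEL202 the FHT-1015 libraries all lay above DMSO in 21 genes, against 5.43% of all genes, and all below in 0, against 4.27%. In MP41 they lay above in 33, against 9.69%, and below in 2, against 11.1%. HPDL and FAM13C were too low to be tested in MEL202, as were FAM13C, ACTL10, ACTN2, P2RX5 and AC010980.2 in MP41.

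Many of the genes were lower at 24 h in both lines. In MEL202 at 24 h edgeR called 39 of 74 genes lower with FHT-1015, against 10.1% of all genes, and 1 higher, against 8.69%. In MP41 it called 41 of 71 lower, against 18.7%, and 1 higher, against 17.4%. The median log2 fold change was -1.03 in MEL202 and -0.71 in MP41, with -0.01 and 0.07 over all genes. Of the 70 genes tested in both lines, 27 were lower in both, against 7.97% of the 14353 genes tested in both, and 18 were lower in neither. The share of all genes lower in neither was not taken. The sums of melanocytic markers were lower in these same comparisons. Leaving out the FHT-1015 library of MEL202 with the fewest genes detected (4 h, replicate 2), 45 genes were lower in MEL202 at 24 h. The share of all genes lower in that refit was not taken.

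The turn itself was tested as the difference between the 24 h and the 4 h effect. In MEL202 edgeR called that difference negative in 34 of 74 genes, against 3.9% of all genes, and positive in 0, against 3%. In MP41 it was negative in 32 of 71, against 10.9%, and positive in 1, PIGA, against 7.73%, a call that was lost in 6 of the 12 fits that each left out a library. A value above 0 at 4 h with a value below 0 at 24 h was seen in 60 of 74 genes in MEL202, in 58 of 71 in MP41 and in 50 in both lines. The same held for 21.0% of all genes tested in MEL202 and for 23.1% in MP41, and no share was taken for both lines together. The count of 34 in MEL202 fell to 20 when FHT-1015 replicate 2 at 24 h was left out, and rose to 46 when FHT-1015 replicate 2 at 4 h was. The count of 32 in MP41 rose to 49 when DMSO replicate 2 at 24 h was left out. Shares of all genes in these refits were not taken.

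Time in DMSO alone did not call these genes in the main test. Between 4 and 24 h of DMSO edgeR called 0 of the genes in MEL202, 0 in MP41 and 0 in the DMSO libraries of the IDE196 experiment, in either direction. Over all genes, 0% were called in either direction in MEL202, 1.6% higher and 0.997% lower in MP41, and 0.162% higher and 0.104% lower in the IDE196 experiment. At an unadjusted p under 0.05 the numbers were 2 higher in MEL202, 6 higher and 9 lower in MP41, and 11 higher and 2 lower in the IDE196 experiment. The shares of all genes under that p were 1.02% higher and 1.05% lower in MEL202, 15.1% and 14.7% in MP41, and 6.73% and 7.61% in the IDE196 experiment. In MP41 the count depended on the tool and on a library, since limma-voom called 13 higher and 21 lower (27.3% and 26.1% of all genes), DESeq2 3 and 2 (7.23% and 6.55%), and edgeR 8 and 19 when DMSO replicate 3 at 24 h was left out. The share of all genes called in that refit was not taken, so its counts cannot be read as particular to these genes. In MEL202 DESeq2 and limma-voom called 0 of the genes and 0% of all genes. In the IDE196 experiment DESeq2 called 0 of 62, where 1.07% of all genes were higher and 1.26% lower, and limma-voom 0 of 76, where 0.285% and 0.22% were.

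**Figure D3:**
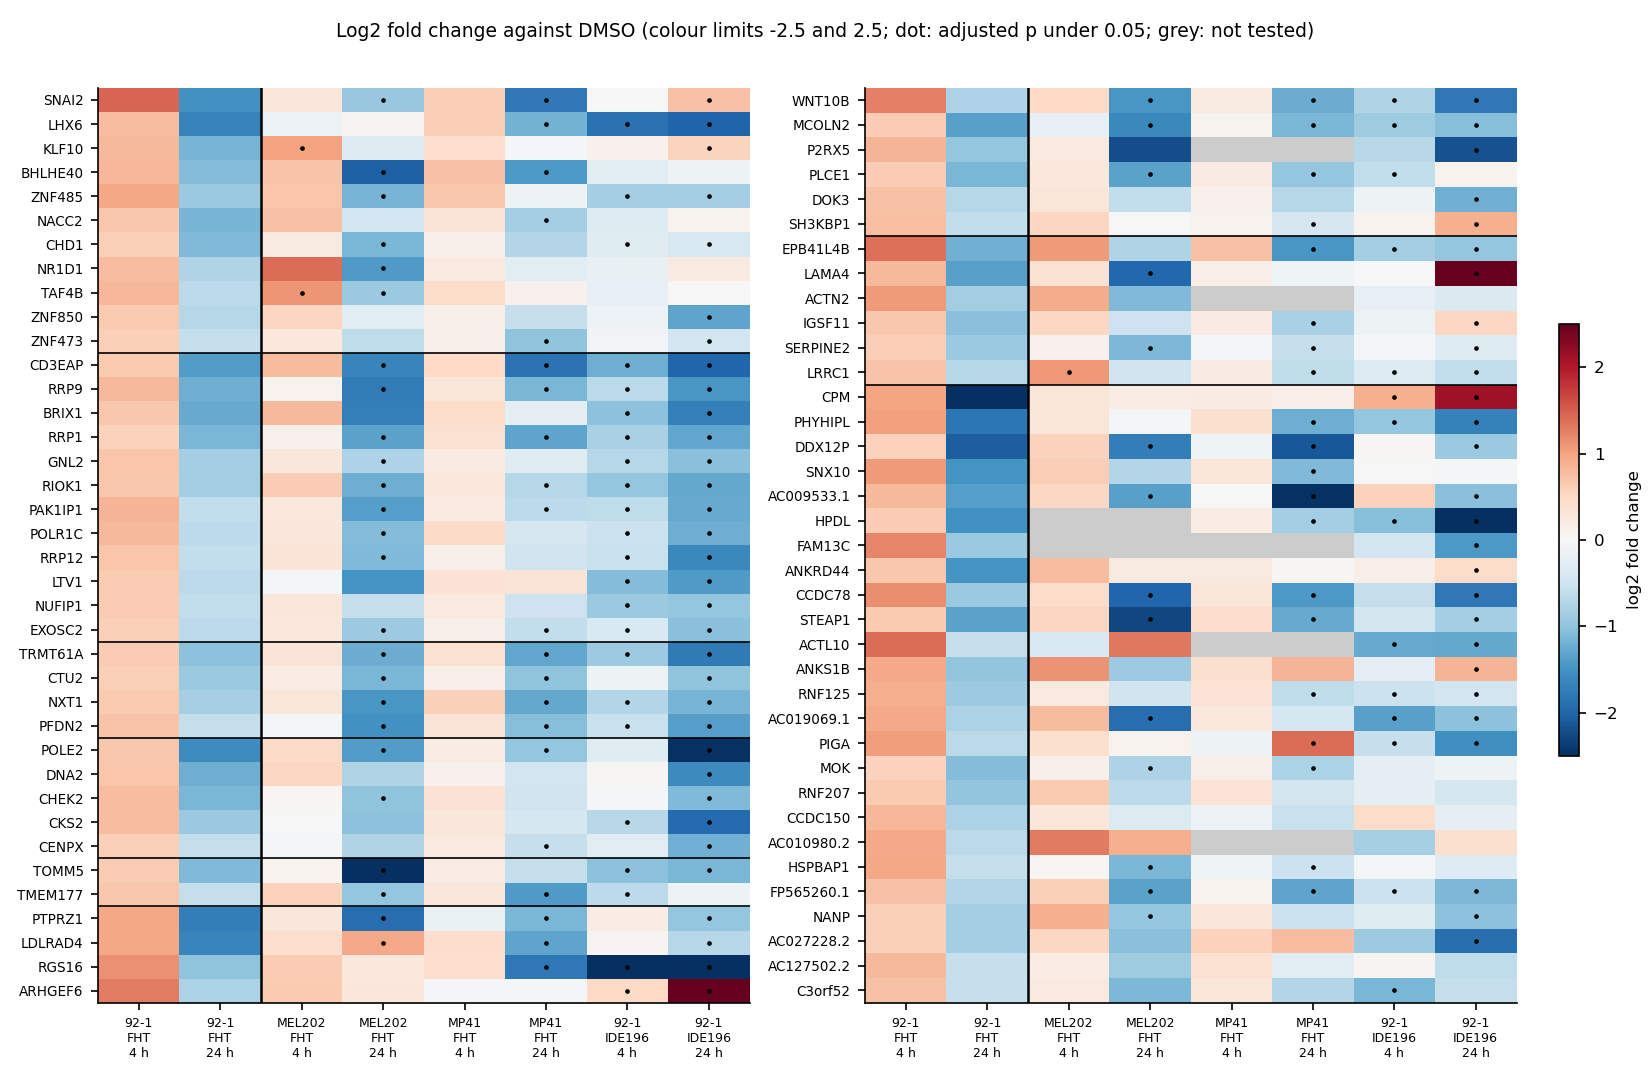
Rows are 75 of the 76 genes, grouped by role with black lines between groups, and columns are the log2 ratios that chose them (left of the vertical line) and the edgeR log2 fold changes in the 3 experiments that did not. Dots mark an adjusted p under 0.05, which is sparse at 4 h with FHT-1015 (3 genes in MEL202, 0 in MP41) and frequent at 24 h and with IDE196 (over all 76, 36 genes lower at 4 h and 52 at 24 h).

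Among the 11 genes of transcription and chromatin, 2 were higher at 4 h in MEL202, against 0.157% of all genes, and 0 in MP41. At 24 h 6 in MEL202 and 5 in MP41 were lower, against 10.1% and 18.7% of all genes. KLF10, a zinc finger factor induced early by TGF-beta, held 55.9, 66.6 and 66.5 cpm with DMSO and 136, 130 and 131 with FHT-1015 at 4 h in MEL202. The groups were far apart, with a log2 fold change of 1.01 ± 0.17 (SE, n = 3 per group, edgeR adjusted p = 0.0154). In MP41 at 4 h, KLF10 held 35.8, 27.7 and 35.7 with DMSO and 42.8, 43.9 and 45.8 with FHT-1015, which did not overlap, at 0.42 ± 0.17 (edgeR adjusted p = 0.744). After 24 h its fold changes were -0.33 in MEL202 and -0.05 in MP41, and neither passed. The call in MEL202 was lost when replicate 1 or replicate 3 of FHT-1015 at 4 h was left out, and with only the 6 libraries compared (edgeR adjusted p = 0.459). KLF10 lies at chr8:102648779-102655902 on the minus strand.

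TAF4B, a subunit of the general factor TFIID, held 6.59, 8.96 and 6.40 cpm with DMSO and 19.6, 13.6 and 16.1 with FHT-1015 at 4 h in MEL202, a log2 fold change of 1.11 ± 0.23 (edgeR adjusted p = 0.0468). At 24 h the values were 12.3, 10.2 and 10.8 against 5.92, 6.99 and 4.81, at -0.93 ± 0.23 (edgeR adjusted p = 0.0122). The groups stood apart at both times, in opposite directions, as the choice had required in 92-1. The 4 h call was lost in 11 of 12 fits that each left out a library and in 5 of 7 other settings, limma-voom among them, where the adjusted p ran up to 0.628 with only the 6 libraries compared by edgeR. The 24 h call was lost in 3 of the 12. In MP41 its fold changes were 0.46 at 4 h and 0.12 at 24 h, and neither passed.

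SNAI2 repeated its fall but not, by test, its rise. In MEL202 at 24 h it held 164, 167 and 173 cpm with DMSO and 81.2, 92.2 and 92.0 with FHT-1015, a log2 fold change of -0.95 ± 0.26 (edgeR adjusted p = 0.0201). Its replicates did not overlap, but leaving out any library of those 2 groups ended the call. In MP41 at 24 h it was lower at 13.9, 16.9 and 32.7 with DMSO against 7.11, 2.63 and 8.59, a log2 fold change of -1.80 ± 0.41 (edgeR adjusted p = 0.00392). The 4 h fold changes were 0.28 in MEL202 and 0.62 in MP41, and the libraries overlapped in both lines.

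BHLHE40, a helix-loop-helix repressor that takes part in circadian and stress responses, fell at 24 h in both lines. In MEL202 it held 57.3, 46.6 and 47.0 cpm with DMSO and 11.5, 13.1 and 12.6 with FHT-1015, at -2.04 ± 0.20 (edgeR adjusted p = 2.27e-05). In MP41 it held 64.4, 85.9 and 65.7 against 24.8, 27.4 and 28.2, at -1.43 ± 0.19 (edgeR adjusted p = 7e-05). At 4 h the groups did not overlap either, and lay the other way. They held 72.6, 52.6 and 51.4 with DMSO and 108, 103 and 88.8 with FHT-1015 in MEL202 (log2 fold change 0.70), and 50.3, 46.7 and 37.0 against 81.4, 82.6 and 57.5 in MP41 (0.73). Neither 4 h change passed the test, but the difference between the times did, at -2.75 ± 0.28 (MEL202, edgeR adjusted p = 0.000129) and -2.15 ± 0.26 (MP41, edgeR adjusted p = 0.000141).

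The 12 genes of ribosome production were POLR1C and CD3EAP (now named POLR1G), subunits of RNA polymerase I, RRP9, of the U3 particle that guides early cleavage of the ribosomal RNA precursor, and RRP1, RRP12, BRIX1, GNL2, RIOK1, PAK1IP1, LTV1, NUFIP1 and EXOSC2, which act in assembly, export, guide RNA particles or trimming. In 92-1 their median log2 ratios were 0.67 at 4 h and -0.75 at 24 h. With FHT-1015 at 24 h, 9 were lower in MEL202 and 6 in MP41, against 10.1% and 18.7% of all genes, with medians of -1.28 and -0.56. At 4 h edgeR, DESeq2 and limma-voom each called 0 of the 12 in either line. At an unadjusted p under 0.05, edgeR had 2 of the 12 higher in each line, against 3.7% of all genes in MEL202 and 1.96% in MP41. DESeq2 also had 2 in each, and its share of all genes under that p was not taken. Limma-voom had 2 in MEL202, against 2.83%, and 7 in MP41, against 6.86%. With IDE196, all 12 were lower at 4 h, against 9.3% of all genes, with a median of -0.77, and all 12 at 24 h, against 29.4%, with a median of -1.29.

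CD3EAP held 9.67, 10.9 and 8.86 cpm with DMSO and 15.6, 15.5 and 16 with FHT-1015 at 4 h in 92-1, and 11.6, 9.58 and 9.58 against 4.21, 2.92 and 3.61 at 24 h. Its groups did not overlap at either time, as the choice required. In MEL202 at 24 h it held 13.4, 10.1 and 9.13 with DMSO and 3.26, 3.79 and 3.53 with FHT-1015, at -1.65 ± 0.29 (edgeR adjusted p = 0.00139), and in MP41 4.95, 4.69 and 4.50 against 1.63, 1.44 and 0.850, at -1.85 ± 0.27 (edgeR adjusted p = 0.000157). With IDE196 it was already lower at 4 h, at 9.27, 10.6 and 9.64 with DMSO and 3.74, 5.05 and 3.89 with the drug, a log2 fold change of -1.22 ± 0.16 (edgeR adjusted p = 3.05e-05). No replicates overlapped in these comparisons of the MEL202, MP41 and IDE196 experiments. The span of the gene overlaps PPP1R13L and ERCC1, and CD3EAP did not meet the choice when reads were counted as the sum of both strands.

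RRP9 held 34.4, 34.1 and 34.2 cpm with DMSO and 55.1, 57.9 and 67.8 with FHT-1015 at 4 h in 92-1, and 32.2, 36.1 and 31.2 against 14.4, 14.3 and 13.2 at 24 h. At 24 h it was lower in MEL202 (62.9, 37.7 and 53.4 against 15.2, 13.8 and 18), at -1.74 ± 0.26 (edgeR adjusted p = 0.000451). It was also lower in MP41 (62.7, 67.1 and 48.9 against 29.5, 24.8 and 26.4), at -1.14 ± 0.16 (edgeR adjusted p = 0.000121). The DMSO libraries of RRP9 were less even in MEL202 than in 92-1, yet none came near the treated ones. IDE196 lowered it at 4 h by -0.67 and at 24 h by -1.46 on the log2 scale (edgeR adjusted p = 0.00089 and 2.73e-08).

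RRP12, an export and maturation factor of the small subunit, and POLR1C passed in MEL202 but not in MP41 at 24 h. Their log2 fold changes were -1.11 ± 0.24 and -1.08 ± 0.29 in MEL202 and -0.50 ± 0.20 and -0.42 ± 0.21 in MP41. In MP41 their DMSO and FHT-1015 libraries overlapped, and the difference between the lines did not pass for either gene. The MEL202 call of POLR1C was lost in 4 of 12 fits that each left out a library (DMSO replicate 1 or any FHT-1015 replicate at 24 h) and with both strands summed (edgeR adjusted p = 0.251). Its IDE196 call at 4 h was lost in 2 of 12, without DMSO replicate 6 or IDE196 replicate 1. BRIX1 and LTV1 had wide errors with FHT-1015 (SE from 0.55 to 0.67) and passed in neither line, while with IDE196 their fold changes at 24 h were -1.71 ± 0.13 and -1.43 ± 0.20, which both passed. POLR1C overlaps YIPF3, XPO5 and LRRC73, BRIX1 overlaps RAD1, and POLR1C, BRIX1, RRP1 and RRP12 also left the choice when both strands were summed.

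**Figure D4:**
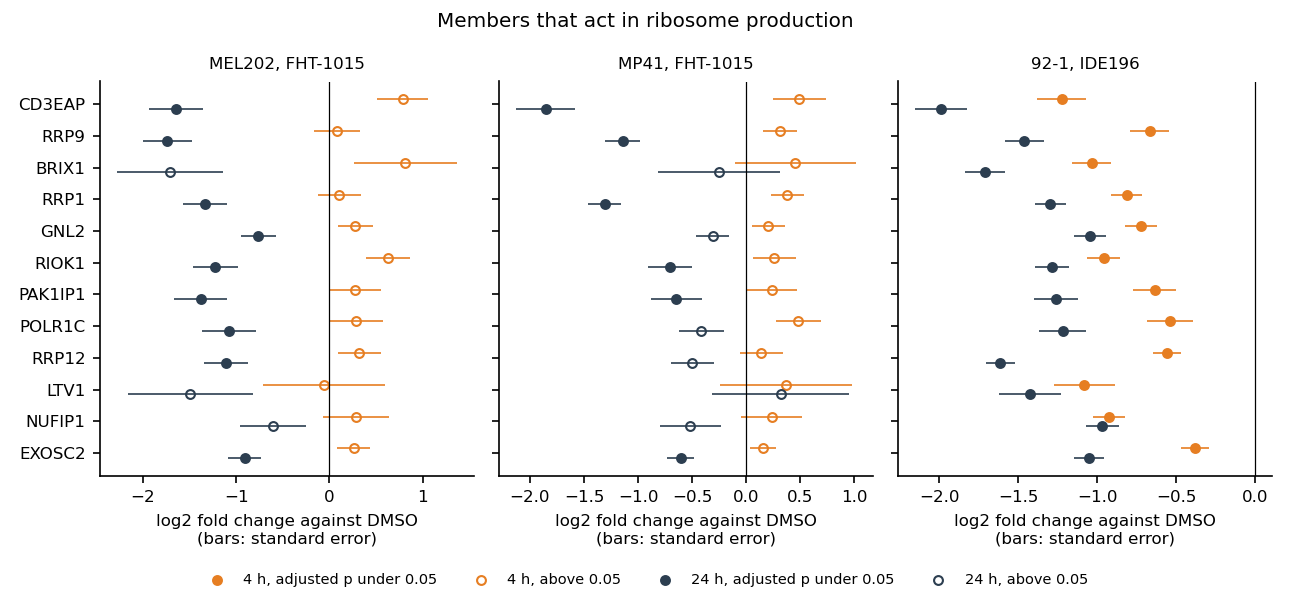
Log2 fold change against DMSO with its standard error for the 12 ribosome production genes at 4 h (orange) and 24 h (dark) in the 3 experiments that did not choose them, filled where the edgeR adjusted p was under 0.05. The orange points lie mostly to the right of 0 and unfilled with FHT-1015 (medians 0.28 in each line), and all lie to the left of 0 and filled with IDE196.

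A list of 32 ribosome biogenesis genes, which shares only RRP9, RRP12 and POLR1C with the 76, was counted in the experiments that did not choose the genes. In MEL202 25 of 32 were lower at 24 h, against 10.1% of all genes, and in MP41 21, against 18.7%, and edgeR called 0 at 4 h in either line (2 in MEL202 and 5 in MP41 higher at an unadjusted p under 0.05, against 3.7% and 1.96% of all genes). At 4 h DESeq2 also called 0, and limma-voom 0 in MEL202 and 2 in MP41, against 0.101% and 1.28% of all genes higher. At an unadjusted p under 0.05 limma-voom had 5 and 11 higher, against 2.83% and 6.86%. With IDE196, 25 of 32 were lower at 4 h, against 9.3% of all genes, and 29 lower and 1 higher at 24 h, against 29.4% and 28.7%. At 4 h the list median was -0.54 with IDE196, 0.26 in MEL202 and 0.15 in MP41 with FHT-1015, and the median over all genes was 0.01, -0.02 and 0.01.

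The 4 genes of RNA modification, RNA export and protein folding were all lower at 24 h in MEL202, MP41 and the IDE196 experiment, against 10.1%, 18.7% and 29.4% of all genes. They were TRMT61A, which methylates transfer RNA, CTU2, which thiolates it, NXT1, a cofactor of messenger RNA export, and PFDN2, of the prefoldin chaperone. Their log2 fold changes at 24 h ran from -1.52 to -1.13 in MEL202, from -1.29 to -1.01 in MP41 and from -1.77 to -1.01 with IDE196. TOMM5, a small subunit of the import channel of the outer mitochondrial membrane, and TMEM177 were both lower with FHT-1015 at 24 h in MEL202, at -3.23 ± 0.90 and -0.96 ± 0.23 (edgeR adjusted p = 0.0219 and 0.0106). TOMM5 held 2.06, 1.76 and 1.33 cpm with DMSO there and 0, 0.379 and 0.147 with FHT-1015, from 0, 9 and 3 reads, so the size of its fold change is poorly measured. Its call was lost in 3 of 12 fits that each left out a library (DMSO replicate 1, FHT-1015 replicate 1 or 3 at 24 h), and that of TMEM177 in 2 (DMSO replicate 3 or FHT-1015 replicate 1 at 24 h). In MP41 TMEM177 was lower at -1.42 ± 0.16 (edgeR adjusted p = 1.56e-05), and TOMM5 stood at -0.60 ± 0.53 and did not pass. With IDE196 at 24 h TOMM5 was lower at -1.15 ± 0.32 (edgeR adjusted p = 0.00568), and TMEM177 stood at -0.14 ± 0.13.

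The 5 genes of DNA replication, repair and division were POLE2, a subunit of DNA polymerase epsilon, DNA2, a nuclease and helicase, CHEK2, the checkpoint kinase, CKS2, a partner of cyclin-dependent kinases, and CENPX, of the centromere. At 24 h 2 were lower in MEL202, 2 in MP41 and 5 with IDE196, against 10.1%, 18.7% and 29.4% of all genes. In the IDE196 experiment POLE2 held 12, 6.11 and 8.36 cpm with DMSO and 1.87, 1.55 and 1.46 with the drug at 24 h. All treated libraries were far below DMSO, at -2.47 ± 0.25 (edgeR adjusted p = 2.26e-07). At 4 h of IDE196 it did not pass, at -0.31 ± 0.22. With FHT-1015 at 24 h POLE2 was called lower in MEL202 at -1.41 and in MP41 at -0.96, but those calls were lost in 3 and 9 of the 12 fits that each left out a library.

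Among the 10 genes of signalling at 24 h with FHT-1015, 4 of 10 were lower and 1 higher in MEL202, against 10.1% and 8.69% of all genes, and 7 of 9 were lower in MP41, against 18.7%. RGS16 speeds GTP hydrolysis by G protein alpha subunits and so shortens the signal of receptors. In MEL202 at 24 h it held 36.8, 39.7 and 48.0 cpm with DMSO and 37.3, 55.8 and 60.0 with FHT-1015, which overlapped. In MP41 it held 29, 28.6 and 30.04 against 6.99, 9.36 and 8.97, at -1.79 ± 0.15 (edgeR adjusted p = 1.35e-06). At 4 h its treated libraries were above DMSO without overlap in both lines, at 0.63 ± 0.22 and 0.41 ± 0.14, and neither passed.

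LDLRAD4 went opposite ways at 24 h. It was higher in MEL202, with 10.4, 16.1 and 13.1 cpm in DMSO and 26.3, 26.1 and 25.1 in FHT-1015, at 0.95 ± 0.25 (edgeR adjusted p = 0.017). It was lower in MP41, with 16, 14.7 and 14.1 against 7.28, 4.70 and 5.91, at -1.32 ± 0.20 (edgeR adjusted p = 0.000218). The MEL202 call was lost in 5 of the 12 fits that each left out a library. PTPRZ1 was lower in both lines, at -1.90 ± 0.29 and -1.14 ± 0.33. In MP41 its DMSO libraries of 36.3, 15.8 and 51.3 overlapped the treated ones of 19.1, 10.8 and 16.9, with replicate 2 of DMSO the low library. That MP41 call was lost without FHT-1015 replicate 2 at 24 h and with only the 6 libraries compared (edgeR adjusted p = 0.0571). WNT10B, a secreted WNT ligand, was lower in both lines without overlap, at -1.45 ± 0.25 and -1.24 ± 0.16 (edgeR adjusted p = 0.00132 and 4.93e-05).

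A joint edgeR fit of the MEL202 and MP41 experiments, added after the data were seen, tested the difference between the lines. At 24 h it called 5 of 75 genes, against 3.03% of 17478 genes, and at 4 h 0 of 75, against 0.00572%. At an unadjusted p under 0.05 the numbers were 16 of 75 at 24 h, against 15.5%, and 5 at 4 h, against 4.58%, which is near the share of all genes. In MEL202 minus MP41, the 24 h difference was 2.36 ± 0.32 for LDLRAD4, 2.15 ± 0.25 for RGS16 and 1.33 ± 0.34 for LHX6. It was -1.76 ± 0.32 for LAMA4, a laminin chain of basement membranes, and -1.68 ± 0.44 for ANKS1B, a scaffold protein of synapses. With FHT-1015 at 24 h LAMA4 fell in MEL202, from 4.44, 6.04 and 4.24 cpm to 1.87, 1.01 and 0.933 (edgeR adjusted p = 0.00122), while in MP41 its libraries of 56.0, 53 and 56.2 and of 45.0, 50.2 and 57.5 overlapped. LHX6 in MEL202, at 0.872 to 1.62 cpm at 24 h, and ANKS1B in both lines, at 0.982 to 2.60 in MEL202 and 0.80 to 1.96 in MP41, were scarce, and changes at such levels are measured poorly.

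Other genes lower at 24 h in both lines with the largest smaller fold change were DDX12P, CCDC78, AC009533.1 and FP565260.1. DDX12P and AC009533.1, a pair of pseudogenes of the DDX11 helicase family on chromosome 12, share sequence with their relatives, so reads may be assigned wrongly among them. Their fold changes at 24 h were -1.73 and -1.35 in MEL202 and -2.12 and -2.47 in MP41. CCDC78, a centriole protein whose gene overlaps HAGHL and FAM173A, stood at -1.99 and -1.43, and FP565260.1, a gene without a common name on chromosome 21, at -1.33 and -1.32. All 8 values passed, and that of AC009533.1 in MEL202 no longer did without FHT-1015 replicate 1 at 24 h. PIGA, which starts the synthesis of membrane anchors of the GPI type, was the only gene of the 71 called higher in MP41 at 24 h, with 30.2, 15.8 and 54.8 cpm in DMSO and 79.6, 102 and 82.1 in FHT-1015, at 1.39 ± 0.31 (edgeR adjusted p = 0.0032). Its DMSO libraries were spread widely, and all lay below the treated ones.

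LRRC1, a scaffold protein of cell polarity, was the third gene called higher in MEL202 at 4 h. It held 13.3, 16.9 and 16.8 cpm with DMSO and 40.3, 23.4 and 39.5 with FHT-1015, at 1.08 ± 0.23 (edgeR adjusted p = 0.0499). Replicate 2 of FHT-1015, the library with few genes detected, was the lowest of the treated ones. The call was lost in 11 of 12 fits that each left out a library and in 3 of 7 other settings. It was kept without that replicate.

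Many of these genes were lower at 4 h with IDE196 in 92-1, and no test compared the drugs. At 4 h edgeR called 36 of 76 lower, against 9.3% of all genes, and 2 higher, against 6.89%, with a median log2 fold change of -0.47, against 0.01 over all genes, and 12 of 76 above 0, against 52.1%. After 24 h it called 52 lower, against 29.4%, and 9 higher, against 28.7%, with a median of -1.03, against 0.03. Both times were lower in 33 genes, against 7.96% of all genes. A value above 0 at 4 h and below 0 at 24 h was seen in 7 of 76, against 14.4% of all genes. The effect at 24 h was below that at 4 h in 28 genes, against 17.2%, and above it in 7, against 13.5%. Of the 27 genes lower at 24 h in MEL202 and MP41 with FHT-1015, 21 were lower with IDE196 at 24 h too. Of the 1115 genes lower in both lines and tested with IDE196, 66.6% were.

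RGS16 had the lowest values with IDE196. At 4 h it held 16.3, 13.8 and 19.1 cpm in DMSO and 0.617, 0.851 and 0.922 in IDE196, at -4.38 ± 0.23 (edgeR adjusted p = 1.01e-09). At 24 h it held 15.8, 19.0 and 24.6 against 0.131, 0.243 and 0.168, at -6.78 ± 0.29 (edgeR adjusted p = 9.62e-12). Those last libraries held 3, 5 and 3 reads of the gene, so the size of the second fold change rests on few reads. In 92-1 with FHT-1015 the same gene went from 16.1, 12.1 and 12.2 to 34.1, 26.5 and 29.7 at 4 h, and from 10.5, 12.6 and 13.1 to 4.62, 4.67 and 7.96 at 24 h.

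LHX6, AC019069.1 and ACTL10 were the next lower with IDE196 at 4 h, at -1.86 ± 0.17, -1.36 ± 0.35 and -1.26 ± 0.33. The call of AC019069.1 was lost in 1 of 12 fits that each left out a library (IDE196 replicate 1 at 4 h). That of ACTL10, with 11 to 26 reads per treated library, was lost in 2 (DMSO replicate 5 and IDE196 replicate 2 at 4 h). AC019069.1 is the divergent transcript of the hexokinase gene HK2, now named HK2-DT. At 24 h HPDL, a mitochondrial dioxygenase, came next after RGS16, before POLE2 and P2RX5, an ATP-gated channel. HPDL held 26.9, 22.7 and 29 cpm in DMSO and 6.27, 4.08 and 3.81 in IDE196, at -2.5 ± 0.25. P2RX5 held 2.56, 3.57 and 2.56 against 0.174, 1.31 and 0.505, at -2.17 ± 0.45. Both were apart from DMSO, P2RX5 at low counts.

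With IDE196 at 24 h, 9 of the 76 were higher, or 11.8%, which is below the 28.7% of all genes. All 76 were below DMSO at 24 h of FHT-1015 in this line because the choice required it. LAMA4 held 9.20, 8.11 and 7.84 cpm in DMSO and 63.2, 57.2 and 86.3 in IDE196 at 24 h, at 2.99 ± 0.14 (edgeR adjusted p = 3.49e-11), while at 4 h it stood at -0.02 ± 0.15. ARHGEF6, an exchange factor for Rac and Cdc42, held 3.47, 2.78 and 2.82 against 17.7, 20.1 and 23.1 at 24 h, at 2.69 ± 0.16 (edgeR adjusted p = 2.87e-10). The treated libraries stood far above DMSO for both genes.

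CPM was higher at both times of IDE196, at 0.88 ± 0.16 and 2.11 ± 0.16, and held 36.6, 29.97 and 38.9 cpm in DMSO and 167, 141 and 163 in IDE196 at 24 h. Among the 76 it had the lowest 24 h ratio with FHT-1015 in the same line. SH3KBP1, an adaptor of receptor endocytosis, was higher at 24 h at 0.89 ± 0.10, SNAI2 at 0.73 ± 0.10 and KLF10 at 0.55 ± 0.11. SNAI2 went from 142, 140 and 164 to 276, 252 and 235, without overlap, and at 4 h it stood at -0.01 ± 0.10. ARHGEF6 at 4 h, at 0.50 ± 0.16, passed narrowly (edgeR adjusted p = 0.0447) and lost the call in 8 of the 12 fits that each left out a library.

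**Figure D5:**
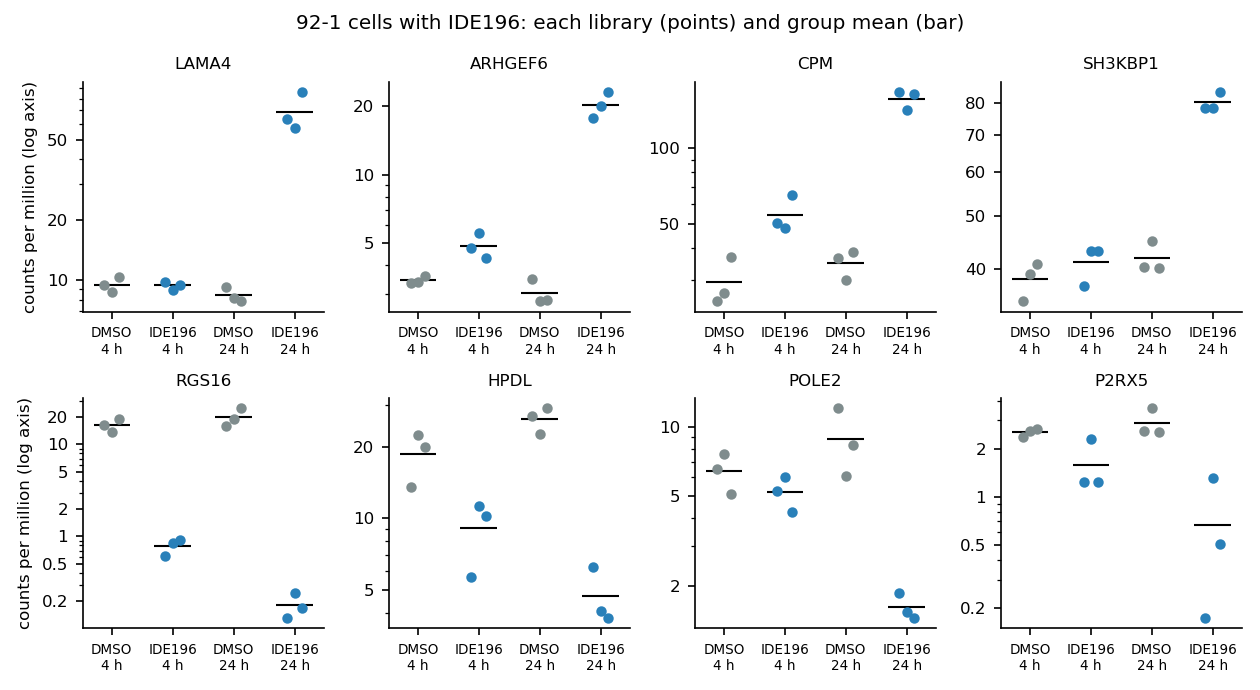
Level in cpm (log axis) in each of the 12 libraries of the IDE196 experiment in 92-1 for the 4 genes most raised and the 4 most lowered at 24 h, with DMSO in grey, IDE196 in blue and a bar at each group mean. LAMA4 stays with DMSO at 4 h and reaches 86.3 at 24 h, while RGS16 is already under 1 at 4 h.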

How the data were processed

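Libraries were poly(A)-selected, per the labels' protocols. The authors deposited raw read counts per gene, in an unstranded column and a column for each strand, and their own aligner, counter and annotation are not given in the sources used here. The submitters' processing notes name the build hg38 and limma. Unstranded counts were used, 58597 of 58870 gene identifiers were matched to GENCODE release 29 for symbols and positions, and 92 spike-ins without reads were left out.

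Levels are counts per 1000000 reads in genes (cpm). Each experiment of 12 libraries was fitted with edgeR 4.0.16 in R 4.3.3 (TMM scaling, filterByExpr, 4 groups, quasi-likelihood F-test, Benjamini-Hochberg over all genes tested, threshold 0.05). Standard errors are the log2 fold change over the root of F. The biological coefficient of variation was 0.294 for MEL202, 0.217 for MP41 and 0.112 for IDE196. Alternatives used DESeq2 1.42.0 and limma 3.58.1. The fits were tested on counts simulated from the means and library sizes of MEL202. Changes were placed at 24 h only, so the power to find changes at 4 h was not tested. The simulated spread was below that of the MEL202 and MP41 fits. Replicates are labelled as biological, with no word on how cultures were separated, and intervals cover these libraries only. All replicate pairs differed beyond sampling noise.

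The 76 genes and the gene lists were chosen with earlier results of these data known. The 92-1 FHT-1015 libraries chose the genes and carry no test. Genes were named by rule: the 8 widest spans in 92-1, genes called higher at 4 h or at 24 h in MEL202 or MP41, the 6 with the largest smaller fold change among those lower at 24 h in both, the 4 largest calls each way at each IDE196 time, and members of the gene lists. Genes named beyond the rule, to give each role group's content or a difference between lines, were chosen after their values were seen. Of the genes the rule named, 1 is not reported here.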

Additional observations from a re-analysis of the deposited data

Results flagged for a closer look

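The FHT-1015 effect differed between the times in the edgeR fits of the other lines. It was lower at 24 h than at 4 h for 34 of 74 genes in MEL202, against 3.9% of all genes. In MP41 it was lower for 32 of 71, against 10.9%, and higher for 1, PIGA, against 7.73%. The PIGA call was lost in 6 of the 12 fits that each left out a library. The IDE196 effect in 92-1 was lower at 24 h than at 4 h for 28 of 76 genes, against 17.2% of all genes, and higher for 7, or 9.21%, which is below the 13.5% of all genes.

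The FHT-1015 effect at 24 h differed between the lines for 5 of 75 genes, against 3.03% of all genes, in the joint edgeR fit added after the data were seen. At an unadjusted p under 0.05 it did for 16, against 15.5%. In MEL202 minus MP41 the difference was 2.36 for LDLRAD4, 2.15 for RGS16, 1.33 for LHX6, -1.68 for ANKS1B and -1.76 for LAMA4 on the log2 scale. No cause of these differences was tested.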

How the results depend on the processing

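The choice of genes kept 65 to 76 of the 76 under TMM scaling, another pseudocount or another minimum level, and 61 with both strands summed. A log2 threshold of 1 left 6. Leaving out a library gave 69 to 84 genes, with 40 of the 76 present each time. In MEL202 at 4 h the 3 genes higher became 8 with DESeq2 and 0 with only the 6 libraries compared, and 0 to 3 with a library left out. In MEL202 at 24 h the 1 higher became 2 with limma-voom or the 6 libraries, and 0 to 1 with a library left out, and the 39 lower became 27 to 45. The 34 negative differences between the times became 20 to 46. In MP41 at 4 h the 0 higher became 2 with DESeq2, 10 with limma-voom and 5 with the 6 libraries, and 0 to 1 with a library left out. In MP41 at 24 h the 1 higher became 5 with limma-voom, 2 with both strands summed and 1 to 3 with a library left out, and the 41 lower became 33 to 53. Its difference between the times was negative in 54 genes with limma-voom and in 27 to 49 with a library left out, and positive in 2 with both strands summed and in 0 to 1 with a library left out. DMSO at 24 h against 4 h in MP41 called 1 higher and 7 lower with no filter on low counts, 3 and 2 with DESeq2, 13 and 21 with limma-voom, and 0 to 8 and 0 to 19 with a library left out. In the IDE196 experiment DMSO called 2 higher and 1 lower with no filter. The 2 genes higher at 4 h of IDE196 became 1 with no filter, DESeq2, limma-voom or the 6 libraries, and 1 to 2 with a library left out. Shares of all genes under these settings, and with the replicate block below, were taken only where given above. The other counts cannot be told apart from a change over all genes. The cause of these changes was not tested. A count of genes has no direction, so a reversal could be seen only in values of single genes. Those repeated were the named genes' passed calls and the ratios of the widest spans among the chosen genes. In 1864 repeats of these values, 0 reversed direction. Whether other genes reversed was not tested.

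Same-numbered libraries of MEL202 and MP41 had correlated deviations over 0.1 in 6 of 12 pairs (r from -0.447 to 0.65), so the numbers were not taken to pair them. With the replicate number as a block, 1 gene, KLF10, was higher in MEL202 at 4 h, where TAF4B and LRRC1 stood at edgeR adjusted p = 0.0848 and 0.0892, and DMSO at 24 h against 4 h in MP41 called 1 higher and 1 lower. The IDE196 arms share no replicate numbers.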
